A study of Homo sapiens with 4 samples.

Results

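The genes described here are those of the G1 restriction point: the D cyclins CCND1, CCND2 and CCND3, the E cyclins CCNE1 and CCNE2, the kinases CDK4, CDK6 and CDK2, the pocket protein RB1 and the transcription factor E2F1. They were chosen by symbol from the count tables, as 10 of the 23228 gene symbols, and all 10 were among the 14473 genes that passed the filter on low counts. RNA came from cells labelled SKOV3 ovarian cancer stem cells (OCSCs). By the study's methods these were FACS sorted for aldehyde dehydrogenase activity with the ALDEFLUOR kit. They were grown as spheroids in serum-free medium with EGF, bFGF, hydrocortisone and insulin. The cells received vehicle (2 samples) or 5 µM of LY500307, an agonist of estrogen receptor β (2 samples), for 24 h. By the labels and methods, both groups were sorted cells of a single cell line. Nothing in the labels says that replicates were separate cultures, so p-values measure only the spread between these samples.

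In G1, mitogens raise D cyclins, which bind CDK4 or CDK6 and begin to phosphorylate RB1. Phosphorylated RB1 lets go of E2F factors, which switch on E cyclins and the genes of DNA replication, and cyclin E with CDK2 then completes the phosphorylation. Inhibitors such as p21 (CDKN1A) and p16 (CDKN2A) hold these kinases back. In ovarian cancer, gain of CCNE1 and loss of the p16 and RB1 brake are well known.

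Libraries held 28841701 to 34943882 gene counts, and the members were counted with 13 reads (CDK6) to 28706 reads (CCND2) in a library. Counts of the LY500307 pair differed with a chi-square of 42.5 per degree of freedom and those of the vehicle pair with 5.16. The chi-square does not say which library of a pair is the odd one. In LY500307 replicate 2, 17.3% of alignments fell on no gene, against 19.0% to 20.5% in the others. Values of the members without LY500307 replicate 2 are therefore given below. A fit that leaves out 1 sample has a lone library in that group and takes its spread from the other pair alone, so their counts past a p threshold move with that pair. The labelled cell type was checked against 8 epithelial and ovarian markers. PAX8, an ovarian lineage factor that SKOV3 is known to express, had 0 reads in all 4 libraries, the keratin KRT19 had 0 to 2 reads and KRT8 9 to 33, WT1 had 0 to 2 and MUC16 1 to 6. EPCAM (6213 to 8327 reads), KRT18 (668 to 1030) and ERBB2 (1452 to 2060) were counted, ERBB2 at only the 47.6th percentile of tested genes per length, although SKOV3 is known for ERBB2 amplification. CDKN2A, a gene that SKOV3 is catalogued as lacking, had 834 to 1107 reads. These markers go against the label, so the values below are those of the libraries labelled SKOV3. The endothelial markers (0 of 3 tested) had 0 to 11 reads. Of the 4 leukocyte markers 2 were tested, PTPRC and CD3E had 0 to 4 reads, and the summed level was 13.0 and 14.9 CPM (read counts relative to TMM-scaled library size) in vehicle and 18.1 and 11.8 CPM in LY500307 samples. The summed level of the 4 fibroblast markers was 210 and 218 CPM in vehicle and 247 and 257 CPM in LY500307 samples, of which COL1A1 made up 182 and 190 CPM and 222 and 230 CPM (log2 fold change 0.28, unadjusted p = 0.0214 with edgeR). The other fibroblast markers had log2 fold changes of -0.20 (DCN), -0.10 (LUM) and 0.23 (PDGFRB). By the criteria 0 of the 11 tested markers were called, beside 4.62% of all tested genes. At an unadjusted p below 0.05 with edgeR, 2 markers were higher and 0 lower, beside 6.09% and 5.5% of all tested genes. The 2 were KRT18 (log2 fold change 0.30) and COL1A1. CD14, with 6 to 22 reads, had a log2 fold change of -1.37 (unadjusted p = 0.0693 with edgeR). The part of these cell types in any result was not tested. ALDH1A1, a source of the sorted activity, had 134 to 185 reads.

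Promoter sequences are shown for E2F1 and CDK4, the members with a searched motif in the windows used. Windows of 250 bases before the RefSeq start (table build GRCh38.p14) were placed on GRCh37 by exact match, and both strands were searched for the E2F motif (TTTCCCGC, TTTCGCGC, TTTGCCGC or TTTGGCGC) and the E-box CACGTG, a letter group bound by MYC. The E-box was added after the windows were seen. Capitals mark the matches.
E2F1, chr20:32274192-32274441, minus strand: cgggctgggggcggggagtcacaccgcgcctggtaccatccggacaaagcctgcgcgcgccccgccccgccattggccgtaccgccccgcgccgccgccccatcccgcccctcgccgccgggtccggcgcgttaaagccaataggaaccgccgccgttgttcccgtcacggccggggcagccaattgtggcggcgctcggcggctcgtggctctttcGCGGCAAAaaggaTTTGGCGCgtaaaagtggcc
CDK4, chr12:58146094-58146343, minus strand: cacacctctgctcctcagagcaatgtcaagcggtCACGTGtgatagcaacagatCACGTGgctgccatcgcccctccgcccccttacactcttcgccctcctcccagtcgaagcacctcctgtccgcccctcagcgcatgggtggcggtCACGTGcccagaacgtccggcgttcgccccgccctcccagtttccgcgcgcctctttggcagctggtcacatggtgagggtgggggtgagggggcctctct
In the E2F1 window, TTTGCCGC stood on the opposite strand 33 to 26 bases before the start and TTTGGCGC on the gene's strand 20 to 13 bases before it. The E2F motif was in 2.79% of 35116 such windows over all genes. The CDK4 window held E-boxes 216 to 211, 196 to 191 and 101 to 96 bases before the start, and 6.34% of all windows held at least 1. Windows of CCND3, CCNE1, CDK6 and RB1 held neither, which says only that these letters are not in these windows. The RefSeq starts behind the windows of CDK4, CCND3 and RB1, and 1 of those of CDK6, lie inside the span that the GRCh37 annotation gives the gene. No window was used for CCND1, CCND2, CCNE2 and CDK2. MYC, which is known to act on CDK4, had 153 and 148 CPM in vehicle and 161 and 140 CPM in LY500307 samples.

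To compare levels between genes, counts were divided by the length of merged exons (giving RPKM, CPM per kilobase). CCND2 was highest in vehicle samples at 101 ± 1.55 RPKM (SD, n = 2), followed by CCND1 at 72.5 ± 0.0607 and CDK4 at 71.7 ± 1.36 (SD, n = 2 each). CDK2 had 24.0 ± 0.880, CCNE1 16.4 ± 0.251, E2F1 15.6 ± 2.22 and RB1 13.2 ± 0.644 RPKM (SD, n = 2 each). CCND3 followed at 4.01 ± 0.247 and CCNE2 at 1.97 ± 0.0353 RPKM, and CDK6 was last at 0.0589 ± 0.00617 RPKM (SD, n = 2 each). Among tested genes, CCND2 stood at the 98.3th percentile of level per length, CDK4 at the 96.9th and CDK6 at the 1.86th. The ranges over all 4 libraries overlapped for the neighbours CCND1 and CDK4 and for CCNE1 and E2F1, and for no other neighbours in this order. With the longest transcript as length, CDK4 came first at 119 RPKM, before CCND2 at 118 and CCND1 at 81.4.

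**Figure D1:**
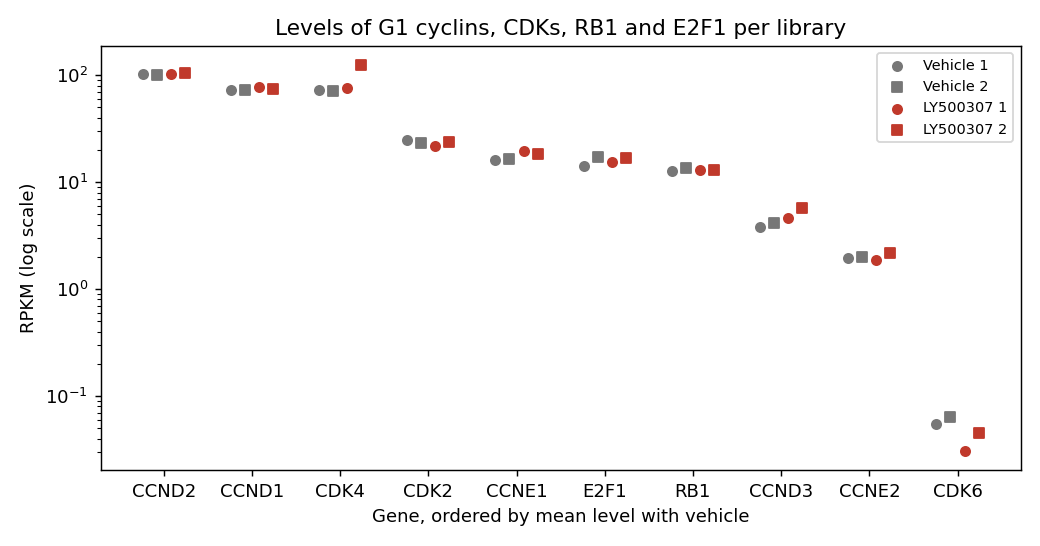
Level of each gene in each library, in RPKM on a log axis, with genes ordered by their vehicle mean. Grey points are vehicle and red points LY500307, circles replicate 1 and squares replicate 2. CCND2, CCND1 and CDK4 lead, CDK6 lies lowest at 0.0306 to 0.0632 RPKM, and CDK4 in LY500307 replicate 2 (124 RPKM) stands above the other libraries of its gene.

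Whether 24 h of LY500307 moved these genes was asked with edgeR's quasi-likelihood test, fitted on all tested genes. A gene was called with the criteria in the study's methods, which ask for an absolute log2 fold change over 0.5 together with p under 0.05 before adjustment. By these criteria 0 of the 10 members were called, beside 4.62% of all tested genes (400 higher, 269 lower; 59.8% of the calls were higher, against 69.7% with library totals as scale, 49.7% with a correction for GC content, 46.1% with that correction and the replicate block, and 42.05% without LY500307 replicate 2). At an unadjusted p below 0.05 alone, 1 member (CCND3) passed, beside 11.6% of all tested genes. DESeq2 also called 0 members, beside 581 of the 14473 tested genes. It gave CCND3 and CDK4 an unadjusted p below 0.05, beside 1430 of the 14473. No tested gene had an adjusted p below 0.05 with edgeR (0 of 14473), where 1678 had an unadjusted p below 0.05, while DESeq2 gave 20. In bulk RNA, fewer cells with a transcript and less of it per cell cannot be told apart.

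The D cyclins CCND1 and CCND2, which carry mitogen signals to CDK4, are the abundant members of their family here, and their groups differed by less than the standard error of the test. CCND1 (GRCh37, chromosome 11 from 69455924 to 69469242) had 345 and 345 CPM with vehicle and 371 and 351 CPM with LY500307. Its groups did not overlap, but the log2 fold change was 0.06 (standard error 0.10, 95% interval -0.17 to 0.30, unadjusted p = 0.542 from edgeR). CCND2 (chromosome 12 from 4378937 to 4414519) had 817 and 799 CPM with vehicle and 827 and 833 CPM with LY500307. The difference was 0.04 on the log2 scale (95% interval -0.20 to 0.28), so a change of more than 0.28 upward lay outside the interval. A log2 ratio of CCND1 to CCND2 reads was between -1.25 and -1.16 in the 4 libraries, which needs no scaling between libraries.

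CCND3, the least abundant D cyclin, was the member with the smallest p in edgeR (0.0410, before CDK4 with 0.0502), whereas CDK4 had the smaller p with DESeq2 (0.0142 against 0.0440), with the replicate block (0.0229 against 0.0410) and with all genes of at least 1 count tested (0.0148 against 0.0301). It had 22.1 and 24.1 CPM with vehicle and 26.5 and 33.0 CPM with LY500307, so both treated libraries lay above both vehicle libraries. The log2 fold change was 0.37 (standard error 0.15, 95% interval 0.02 to 0.71, unadjusted p = 0.0410, adjusted p = 0.428 with edgeR), below the limit of 0.5. Without LY500307 replicate 2 it was 0.20, and without LY500307 replicate 1 it was 0.52. With a correction for GC content, 0 members had an unadjusted p below 0.05. The log2 ratio of CCND1 to CCND3 reads was 3.97 and 3.84 with vehicle and 3.81 and 3.41 with LY500307, a difference of -0.30 (exact permutation test, two-sided p = 0.333). This is the smallest p that 2 against 2 samples allow. The 3 tested genes closest to CCND3 in pattern over the 4 libraries were CD70, ALG1 and FLYWCH1, with a root mean square difference of centred log2 CPM of 0.0103, 0.0143 and 0.0145.

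CDK4 and CDK6 are the partners of the D cyclins, and in these libraries CDK4 carried nearly all of the reads. CDK4 (chromosome 12 from 58141510 to 58149796, minus strand) had 225 and 219 CPM with vehicle and 233 and 384 CPM with LY500307. Replicate 1 of the LY500307 group lay within 0.07 of the vehicle mean on the log2 scale, and replicate 2 lay 0.79 above it. The log2 fold change was 0.48 (standard error 0.21, 95% interval -0.00 to 0.95, unadjusted p = 0.0502, adjusted p = 0.431 with edgeR). Without LY500307 replicate 2 it was 0.07. The gap between the LY500307 libraries, 0.72 on the log2 scale, was larger than that of 92.4% of tested genes.

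Of the merged exons of CDK4, 44.2% (1369 bases) overlap TSPAN31 on the opposite strand, and whether the counting used strand is not given in the sources used here. TSPAN31 had 28.1 and 27.3 CPM with vehicle and 29.2 and 40.9 CPM with LY500307 (log2 fold change 0.34, standard error 0.17, unadjusted p = 0.0807 with edgeR), so its highest library was again LY500307 replicate 2. METTL1 nearby was also highest in that library (8.04 CPM against 6.30 to 6.77 CPM), whereas MARCH9 and AGAP2 were not. These neighbours were picked after the values of CDK4 were seen.

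**Figure D2:**
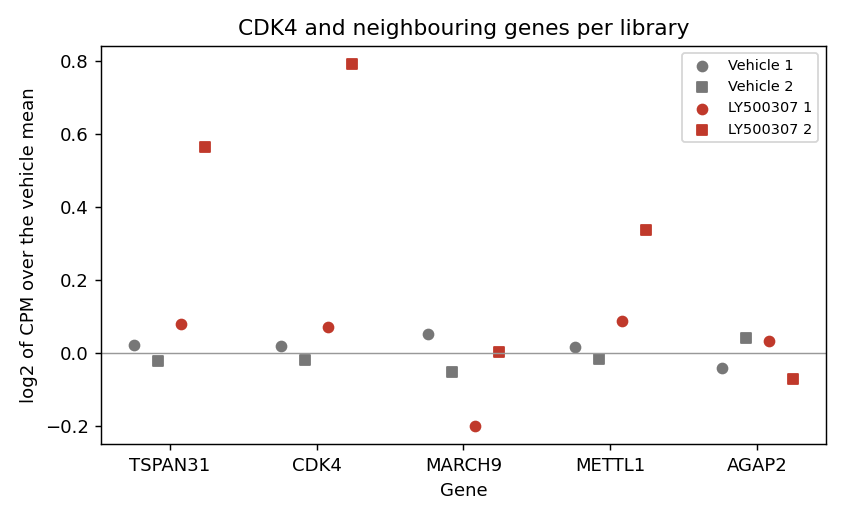
CPM of CDK4 and of genes near it, as log2 of the value over the vehicle mean of the same gene, in each library (grey vehicle, red LY500307, circles replicate 1, squares replicate 2). CDK4 in LY500307 replicate 2 lies 0.79 above its vehicle mean while replicate 1 lies 0.07 above it, and TSPAN31, which overlaps CDK4, is also highest in replicate 2.

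CDK6, which elsewhere can stand in for CDK4, was counted with 20 and 22 reads with vehicle and 13 and 18 reads with LY500307. Counting error alone gives exact Poisson 95% intervals of 12.2 to 30.9 and 13.8 to 33.3 reads for the vehicle libraries and 6.92 to 22.2 and 10.7 to 28.5 reads for the LY500307 libraries. The log2 fold change was -0.63 (standard error 0.51, 95% interval -1.81 to 0.55, unadjusted p = 0.253 with edgeR), so a difference was not detectable at this depth. Leaving out 1 sample moved the value between -0.93 (without LY500307 replicate 2) and -0.37 (without replicate 1). Per length, CDK4 exceeded CDK6 by 1333 and 1119 times in the vehicle libraries and by 2460 and 2729 times in the LY500307 libraries. The log2 ratio of their reads differed by 1.09 between groups (exact permutation test, two-sided p = 0.333), with a counting error of up to 0.40 in a library.

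CDK2, the partner of cyclins E and A, had 95.7 and 90.9 CPM with vehicle and 84.7 and 91.7 CPM with LY500307, and the groups overlapped. Its log2 fold change was -0.08 (95% interval -0.31 to 0.15, unadjusted p = 0.449 with edgeR). The E cyclin CCNE1 had 39.9 and 40.8 CPM with vehicle and 48.6 and 45.3 CPM with LY500307. Both treated libraries were above both vehicle libraries, with a log2 fold change of 0.22 (standard error 0.11, 95% interval -0.04 to 0.48, unadjusted p = 0.0859 with edgeR). Leaving out LY500307 replicate 2 gave 0.27 and leaving out replicate 1 gave 0.17, so here replicate 2 was not the higher of the treated libraries. CCNE2 had 8.54 and 8.76 CPM with vehicle and 8.21 and 9.65 CPM with LY500307, which overlapped (log2 fold change 0.05, 95% interval -0.37 to 0.46). INTS8 and an unnamed gene on the opposite strand overlap 37.1% of its merged exons.

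RB1, the pocket protein that these kinases inactivate, had 82.3 and 88.1 CPM with vehicle and 83.4 and 83.5 CPM with LY500307 (chromosome 13 from 48877880 to 49173572). Its log2 fold change was -0.03 (95% interval -0.26 to 0.20, unadjusted p = 0.774 with edgeR), and the treated libraries lay between the vehicle libraries. E2F1, the activating E2F whose own promoter window is shown above, had 37.8 and 46.3 CPM with vehicle and 41.1 and 45.5 CPM with LY500307 (chromosome 20 from 32263283 to 32274191, minus strand). The treated values again lay between the vehicle values, with a log2 fold change of 0.04 (95% interval -0.27 to 0.36, unadjusted p = 0.760 with edgeR). The log2 ratio of E2F1 to RB1 reads was -1.12 and -0.93 with vehicle and -1.02 and -0.88 with LY500307 (exact permutation test, two-sided p = 0.667). The signs for RB1 and E2F1 turned with the GC correction, to 0.12 and -0.08.

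Over the members together, 5 lay higher in both LY500307 libraries than in both vehicle libraries and 1 (CDK6) lay lower, beside 24.2% and 24.4% of all tested genes. Without LY500307 replicate 2 the log2 fold changes not given above were 0.11 for CCND1, 0.04 for CCND2, -0.07 for CCNE2, -0.14 for CDK2, -0.03 for RB1 and -0.03 for E2F1. The median log2 fold change of the members was 0.04, beside -0.00 for all tested genes.

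**Figure D3:**
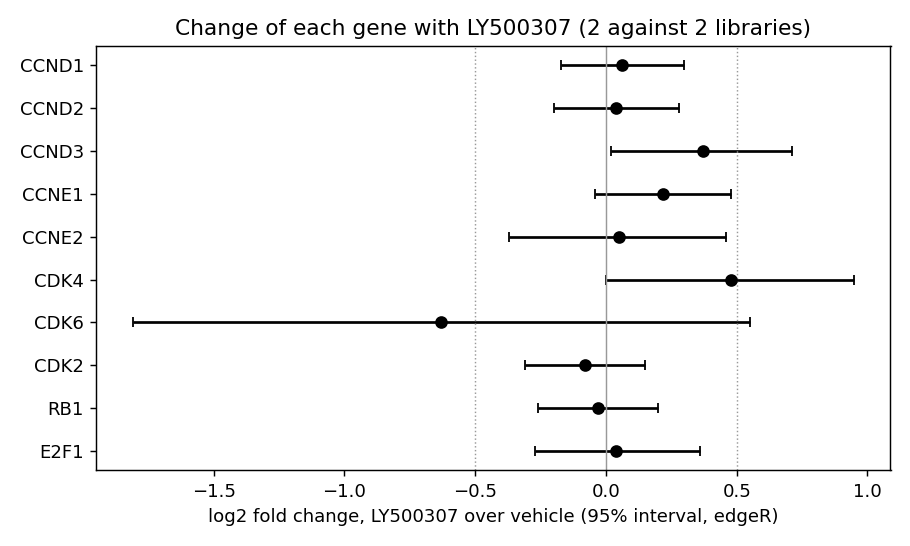
Log2 fold change (LY500307 over vehicle) of each of the 10 genes with its 95% interval from edgeR, on 2 against 2 libraries, with dotted lines at the limits of -0.5 and 0.5. The interval of CCND3 alone lies above 0 (0.02 to 0.71), that of CDK4 starts at -0.00, and that of CDK6 is the widest (-1.81 to 0.55).

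The other genes of the G1 network were described from a list of 59 genes, of which 56 were tested. Among these, 4 were called higher and 0 lower, beside 2.76% and 1.86% of all tested genes, and the median log2 fold change was -0.00. The called genes were CDKN1A, CCNA1, RBX1 and JUN, and JUND, named after its values were seen, had an unadjusted p below 0.05 with a log2 fold change of 0.30.

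Of the 7 CDK inhibitors, CDKN1A (p21), which binds cyclin-CDK2 and is induced by p53, was the called member. It had 265 and 274 CPM with vehicle and 418 and 473 CPM with LY500307. The fit gave a log2 fold change of 0.72 with a standard error of 0.11 (adjusted p = 0.422 with edgeR and 0.000252 with DESeq2), and leaving out 1 sample at a time kept it between 0.64 and 0.81. The log2 ratio of CDKN1A to CDK2 reads was 1.47 and 1.59 with vehicle and 2.30 and 2.37 with LY500307, a difference of 0.80 with no overlap (exact permutation test, two-sided p = 0.333, Benjamini-Hochberg adjusted p = 0.466 over the 7 ratios tested). Against CCND1, the same ratio went from -0.38 and -0.33 to 0.17 and 0.43, a difference of 0.66 (exact permutation test, two-sided p = 0.333). These ratios are of reads not divided by gene length. They show the difference between groups, and not which of the genes had the higher level. CDKN2A (p16 and ARF) had 28.3 and 30.1 CPM with vehicle and 31.9 and 25.8 CPM with LY500307, a log2 fold change of -0.02. CDKN1B (p27), CDKN1C, CDKN2B, CDKN2C and CDKN2D were not called, with log2 fold changes from -0.33 to 0.32.

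Among 9 tested genes of CDK activation and the A cyclins, CCNA1, a cyclin best known from the germ line, was called. It had 6.94 and 8.44 CPM with vehicle and 11.0 and 16.0 CPM with LY500307 (log2 fold change 0.81, standard error 0.22, unadjusted p = 0.00711, adjusted p = 0.422 with edgeR). Without LY500307 replicate 2 the value was 0.51, and without LY500307 replicate 1 it was 1.06. The somatic A cyclin CCNA2 had 132 and 134 CPM with vehicle and 125 and 123 CPM with LY500307, a log2 fold change of -0.10 that was not called. Among 12 turnover genes, RBX1, the RING subunit of SCF ubiquitin ligases, was called, with 27.7 and 36.9 CPM with vehicle and 41.3 and 65.8 CPM with LY500307. Its log2 fold change of 0.73 became 0.36 without LY500307 replicate 2 and 0.54 without vehicle replicate 1. SKP2, the F-box protein for p27, had a log2 fold change of -0.04.

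Among the 17 tested mitogen factors, JUN, an AP-1 subunit that acts on CCND1, was called from 6.90 and 5.24 CPM with vehicle and 8.70 and 8.60 CPM with LY500307. Its log2 fold change of 0.51 was near the limit, and was below it at 0.32 without vehicle replicate 2 and at 0.41 with the GC correction. Of 11 tested pocket protein, E2F and DP genes, 0 were called, beside 4.62% of all tested genes. The repressor E2F8 had the smallest p, with 28.0 and 31.6 CPM with vehicle and 25.8 and 22.5 CPM with LY500307 (log2 fold change -0.30, unadjusted p = 0.0607 with edgeR). RBL1 and RBL2, the pocket protein relatives of RB1, had log2 fold changes of -0.25 and -0.13.

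E2F factors act on replication genes, and 44 replication and nucleotide genes known as E2F targets were described, all of them tested. By the criteria 0 were called, beside 4.62% of all tested genes. A negative log2 fold change was seen for 31 of the 44, beside 7240 of the 14473 tested genes. The median was -0.09 beside -0.00 for all tested genes. At an unadjusted p below 0.05, 6 were lower and 0 higher, beside 5.5% and 6.09% of all tested genes. When any 1 sample was left out, the list's median log2 fold change lay between -0.10 and -0.08. Counts past a p threshold in those fits are left out here, because 1 pair alone supplied the spread. Both LY500307 libraries lay below both vehicle libraries for 24 of the 44, beside 24.4% of all tested genes, and above them for 1. Against the vehicle mean, the list's median was -0.08 for LY500307 replicate 1 and -0.11 for the other treated library. E2F1 and the E cyclins were not part of this list. E2F1 itself, as given above, had overlapping groups, and CCNE1 and CCNE2 had log2 fold changes of 0.22 and 0.05.

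HELLS, a chromatin remodeler of replicating cells, had the smallest p of this list, with 120 and 115 CPM with vehicle and 93.7 and 87.3 CPM with LY500307. Its log2 fold change was -0.37 (standard error 0.10, unadjusted p = 0.00529, adjusted p = 0.422 with edgeR), and it was -0.42 to -0.32 with each sample left out in turn, and -0.24 with the GC correction. POLA1, the catalytic subunit of DNA polymerase alpha, had 63.5 and 62.7 CPM with vehicle and 50.8 and 48.1 CPM with LY500307. In HELLS and POLA1 the gap between groups was wider than the gap within either. MYBL2 (B-MYB), EZH2 and CASP8AP2 had log2 fold changes of -0.35, -0.35 and -0.37, and each was closer to 0 without LY500307 replicate 2 than without replicate 1. RRM2, a ribonucleotide reductase subunit and the remaining gene with an unadjusted p below 0.05, had -0.31 and was named after its values were seen. In the other direction TK1 had the largest value, 0.29 (unadjusted p = 0.211 with edgeR), which turned to -0.09 without LY500307 replicate 2, and GINS4 had 0.13. With the GC correction POLA1 was -0.26, MYBL2 -0.45, EZH2 -0.27 and CASP8AP2 -0.24. When the replicate block was added to that correction, the unadjusted p from edgeR was 0.00427 for MYBL2. It was then 0.0569 to 0.0877 for HELLS, POLA1, EZH2 and CASP8AP2.

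**Figure D4:**
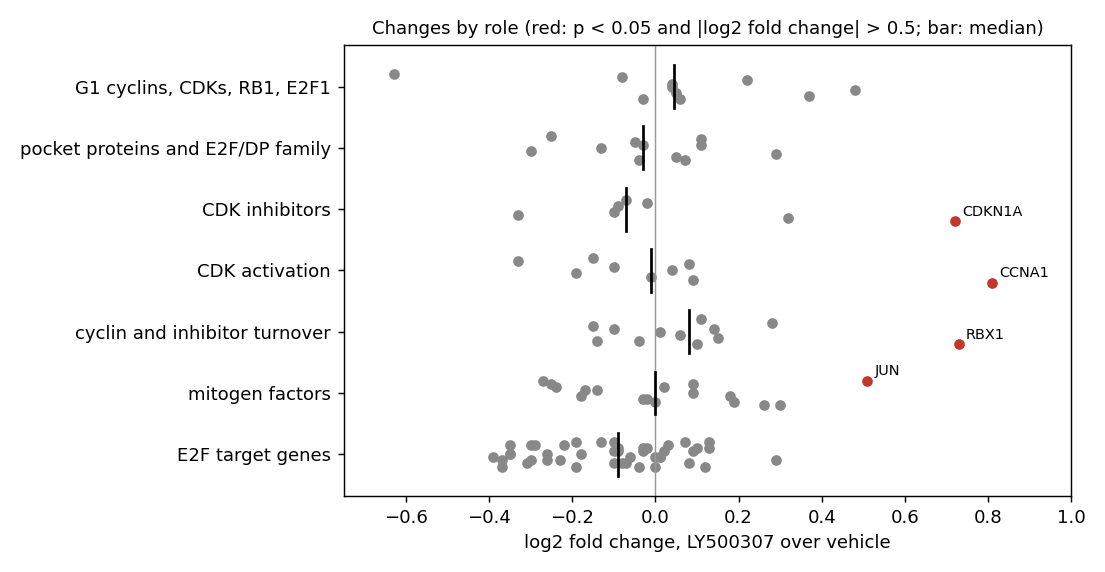
Log2 fold changes (LY500307 over vehicle) of every tested gene of the G1 network, by role, with red for genes that met both criteria and a black bar at the median of each role. The called genes are CDKN1A, CCNA1, RBX1 and JUN, all to the right of 0, and the E2F target genes have their median at -0.09.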

How the data were processed

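RNA of 2 vehicle and 2 LY500307 samples was sequenced as 50 bp single-end reads. Per the labels, the authors used bcl2fastq, TopHat2 2.0.8b, HTSeq and the hg19 build, and deposited raw read counts per gene symbol. The library kit is described as total RNA in the labels and as stranded mRNA in the methods, and the strand setting of HTSeq is not given in the sources used here. Tallies that name no gene were left out (no feature 17.3% to 20.5%, ambiguous 0.440% to 0.481%, not unique 32.3% to 33.4% of alignments). Depth was 28841701 to 34943882 counts, and intervals on counts cover counting error only.

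Counts were filtered with filterByExpr, scaled by TMM and tested with edgeR 4.0.16 (quasi-likelihood, two-sided, Benjamini-Hochberg over 14473 genes) in R 4.3.3. Standard errors were derived from the F statistic. Exact permutation tests over samples served the 7 ratios, which were taken on raw counts. For the ratios, adding 1 read to each count was an alternative. RPKM used merged exons of a GRCh37 gene annotation, and 91.8% of symbols matched. Alternatives were DESeq2 1.42.0, its size factors, library totals, other filters, a replicate block, a loess correction for GC content and leaving out each sample.

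The members and lists (other genes of the G1 network, E2F targets, cell type markers) were chosen with earlier results of these data known. Named were all members, CDKN1A, the called genes of each role (where none, the smallest p), and of the E2F targets the 5 smallest p and the 2 largest positive changes. Other genes named are stated as such or serve as members of a described list.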

Additional observations from a re-analysis of the deposited data

How the results depend on the processing

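With 2 samples a group, 1 library decides many counts. Over the fits that left out 1 sample, 352 to 1987 genes were called in all (669 with all samples), 0 to 2 members, 3 to 7 partner genes and 0 to 4 E2F targets. The highest of each came without LY500307 replicate 1, with CCND3 at 0.52 and CDK4 at 0.79. These counts follow which pair supplies the spread: the close vehicle pair when an LY500307 sample is left out, the wider LY500307 pair when a vehicle sample is. Adjusted p-values below 0.05 numbered 0 to 5006 over the same fits, 5006 and 591 with the spread of the vehicle pair alone and 0 with that of the LY500307 pair alone, so they say nothing about stability. DESeq2 gave 20, the replicate block 1, and block plus GC correction 3. Library totals called 1 member, CDK4 (0.52, unadjusted p = 0.0495 with edgeR). Same-numbered samples did not deviate together (correlation -0.07 across 14473 genes). This compares 1 pair of libraries per group, the LY500307 pair being the wider, so it cannot show whether numbers pair samples. The replicate block called 717 genes and 0 members.

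Directions turned for small values. With the GC correction CCND1 was -0.01, RB1 0.12 and E2F1 -0.08, and with the block and GC correction -0.01, 0.12 and -0.07. RB1 was 0.01 with library totals. With 1 sample left out, CCNE2 ranged from -0.07 to 0.16, RB1 from -0.08 to 0.02, E2F1 from -0.10 to 0.20, TK1 from -0.09 to 0.59 and GINS4 from -0.03 to 0.28. The ratio difference of CCND1 to CCND2 ranged from -0.02 to 0.07, and that of E2F1 to RB1 from -0.02 to 0.17. With the longest transcript as length, CDK4 ranked 1, CCND2 2, CCND1 3, RB1 6 and E2F1 7. The cause of these shifts was not tested. CDK6 had the fewest reads of the members, 13 to 22, and the widest interval.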
